A study of Homo sapiens with 15 samples.

Results

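The cytokine receptor genes IL7R, IL6ST and LIFR, the kinase gene JAK2 and the feedback inhibitor gene SOCS3 were followed in WI-38 cells, a human fetal lung fibroblast line with a limited lifespan in culture. The 5 genes were taken by name from 4 deposited tables that together list 4872 genes, each table setting 1 group against the PD45 control. They were chosen by the authors' fold changes and adjusted p-values in those tables, so their differences from the PD45 control are described and not tested. Each group had 3 libraries, 15 in all. The groups were a PD30 control with DMSO and the lipofection reagent lipo3000; PD45 cells with GW8510, lipo3000 and NC; PD45 cells with DMSO, lipo3000 and siSRC2; PD45 cells with DMSO, lipo3000 and siSRC4; and a PD45 control with DMSO, lipo3000 and NC. PD is read as population doublings, NC as a control siRNA, and siSRC2 and siSRC4 as a pair of siRNAs against SRC, a tyrosine kinase gene, from the titles alone, since their treatment label is the same. GW8510 is a kinase inhibitor known for its action on cyclin-dependent kinases, and its dose is not in the labels. By the labels, GW8510 cannot be separated from the absence of DMSO, nor PD30 from the absence of NC. The series' design calls the treated cells senescent, and its title ties GW8510 to SRC, PAKs and JAKs.

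Cytokines of the IL6 and LIF type bind receptor complexes that share the signal chain gp130, encoded by IL6ST, and LIFR encodes the chain that pairs with gp130 for LIF. IL7R encodes the receptor chain that binds interleukin 7 together with the common gamma chain, and binds TSLP together with CRLF2; it is best known from lymphocytes. Receptor-bound Janus kinases such as JAK2 phosphorylate STAT transcription factors, and STAT3 induces SOCS3, whose protein binds gp130 and JAKs and dampens the signal. In senescent fibroblasts this pathway is known as a route through which secreted IL6-type cytokines act back on the cells.

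Promoter windows of the genes listed in the most comparisons are shown with that of LIFR, because STAT proteins bind palindromic sites of the form TTCNNNGAA and a closely spaced form TTCNNGAA, read on both strands. JAK2, listed for GW8510 alone as LIFR was, is not printed and held no match, so the windows shown lean towards matches. The windows come from RefSeq on GRCh38.p14, where all 5 genes had an entry. They run from 250 bases before to 50 bases after an annotated start, and capitals mark matches to either form. IL7R (chr5:35856641-35856940, plus strand) and IL6ST (chr5:55994914-55995213, minus strand) have 1 window each. SOCS3 (chr17:78360876-78361175, minus strand) has 2 and LIFR (chr5:38595356-38595655, minus strand) has 3, of which the most upstream is shown for each.
IL7R: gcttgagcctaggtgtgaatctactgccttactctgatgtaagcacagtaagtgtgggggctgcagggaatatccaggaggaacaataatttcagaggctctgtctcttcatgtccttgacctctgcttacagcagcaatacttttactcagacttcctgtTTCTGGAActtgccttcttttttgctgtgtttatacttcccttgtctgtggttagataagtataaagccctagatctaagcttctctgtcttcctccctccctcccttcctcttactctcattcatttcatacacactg
IL6ST: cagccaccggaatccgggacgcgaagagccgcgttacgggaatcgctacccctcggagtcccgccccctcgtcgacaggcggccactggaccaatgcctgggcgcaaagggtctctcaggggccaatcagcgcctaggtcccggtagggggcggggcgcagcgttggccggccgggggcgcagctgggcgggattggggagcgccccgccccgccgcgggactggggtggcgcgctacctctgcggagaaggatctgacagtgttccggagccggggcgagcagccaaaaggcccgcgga
LIFR: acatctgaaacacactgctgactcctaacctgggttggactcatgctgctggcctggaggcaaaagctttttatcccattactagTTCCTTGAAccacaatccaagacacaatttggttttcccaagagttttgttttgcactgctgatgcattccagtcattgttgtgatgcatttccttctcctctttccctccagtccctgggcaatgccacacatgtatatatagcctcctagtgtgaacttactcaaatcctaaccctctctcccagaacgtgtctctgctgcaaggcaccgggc
SOCS3: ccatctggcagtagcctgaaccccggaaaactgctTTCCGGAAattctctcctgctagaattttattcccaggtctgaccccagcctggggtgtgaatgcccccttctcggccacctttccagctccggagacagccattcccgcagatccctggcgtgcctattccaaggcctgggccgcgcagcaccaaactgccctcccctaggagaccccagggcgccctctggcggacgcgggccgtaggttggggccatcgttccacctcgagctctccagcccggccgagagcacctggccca
The IL7R window held TTCTGGAA starting at position -89 from the start site, and the SOCS3 window held TTCCGGAA at -215. The LIFR window shown held TTCCTTGAA at -165, and a downstream LIFR window held TTCATCGAA at -182. Neither form was in the IL6ST window, the 4 JAK2 windows, the other SOCS3 window or the most downstream LIFR window. Of 35116 promoter windows of the same length, 7.66% hold TTCNNNGAA and 7.74% hold TTCNNGAA. These matches describe letters and are no evidence of binding. The 3 receptor genes lie on chromosome 5, JAK2 on chromosome 9 and SOCS3 on chromosome 17.

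The values are the normalized expression signal that the authors deposited, and read depth is unknown. SRC, the knockdown target, had signals of 11.6, 10.6 and 11.6 with siSRC2 and 9.51, 11.1 and 11.8 with siSRC4, against 19.0, 20.5 and 19.9 in the PD45 control. Every knockdown library lay below every control library. Of an inferred 18575 genes tested, the authors' deposited table for PD30 lists 2845. The table for GW8510 lists 1845 of 15574, that for siSRC4 1280 of 14598 and that for siSRC2 331 of 12549. A gene outside a table has no value here and is not shown to be unchanged. Of 12 fibroblast markers, 5 were listed for PD30, with VIM, COL3A1, COL6A3 and PDGFRA higher and S100A4 lower, where 15.3% of all tested genes were listed. For GW8510, COL3A1 was listed as higher and FAP as lower, for siSRC2 COL3A1 and COL6A3 as higher, and for siSRC4 none was listed. VIM, an intermediate filament gene, had signals from 5162 to 5585 at PD30, against 3158 to 3346 in the PD45 control. Of 12 leukocyte markers, CD68 was the 1 listed in any table. In bulk RNA, fewer cells of a type and less RNA per cell cannot be told apart.

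All 5 genes were listed for GW8510, 2 as higher and 3 as lower, where 11.8% of all tested genes were listed, 4.59% as higher and 7.26% as lower. For PD30 the listed genes were SOCS3 as higher and IL7R as lower, against 15.3% of all tested genes, 8.24% higher and 7.07% lower. IL6ST and IL7R were listed as lower with siSRC4, against 8.77% of all tested genes, 3.91% higher and 4.86% lower, and IL7R as lower with siSRC2, against 2.64%, of which 1.38% were higher and 1.26% lower. Nothing is read from these 10 listed differences as counts, since the listing chose the genes. In 9 of the 10, all libraries of the group lay on one side of the control libraries. Among all listed genes that held for 93.6% at PD30, 90.6% with GW8510, 90.6% with siSRC2 and 88.8% with siSRC4. The tables hold genes past a 1.5-fold difference at an adjusted p of 0.05. The smallest authors' fold among the 10 was 1.59, for IL7R with GW8510.

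**Figure D1:**
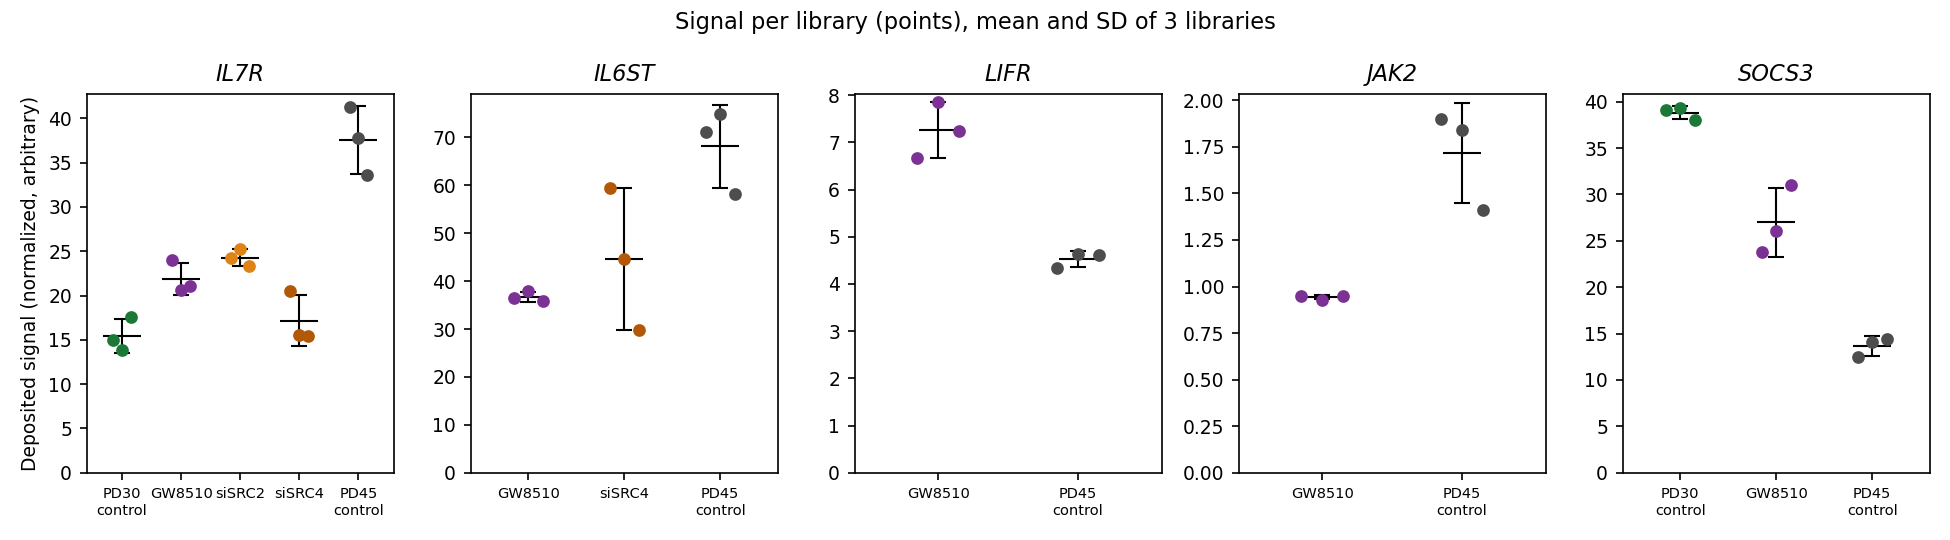
Deposited signal (y axis, normalized, from 0) of each gene in the groups where it is listed and in the PD45 control, with 1 point per library and the mean and SD of 3 libraries in black. All IL7R values outside the PD45 control lie below its lowest library at 33.6, whereas the siSRC4 libraries of IL6ST run from 29.7 to 59.4 and reach into the control range.

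IL7R was the 1 gene of the 5 listed in all 4 tables, among 22 such genes, and each table gives it as lower than in the PD45 control. Its signal was 14.9, 13.9 and 17.6 in the PD30 libraries. GW8510 libraries stood at 24.0, 20.7 and 21.0, and siSRC2 libraries at 24.3, 25.2 and 23.4. The siSRC4 libraries had 20.5, 15.6 and 15.5, against 41.3, 37.7 and 33.6 in the PD45 control. The control libraries were thus the highest, and none of the other groups overlapped with them. As ratios of mean signals, IL7R was 2.43-fold lower at PD30, 1.72-fold lower with GW8510, 1.55-fold lower with siSRC2 and 2.19-fold lower with siSRC4 than in the PD45 control. These 4 differences share the control libraries. In the authors' deposited tables the IL7R log2 fold changes were -1.34 at PD30, -1.16 with siSRC4 and -0.67 with each of siSRC2 and GW8510.

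**Figure D2:**
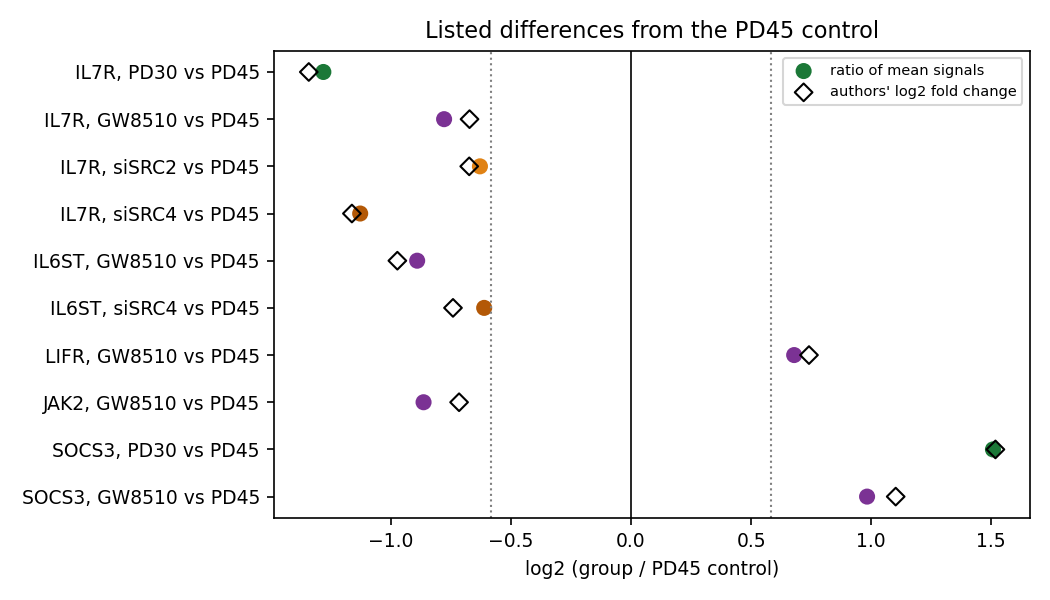
Differences from the PD45 control on a log2 scale (x axis) for the 10 gene and group combinations that the tables list, with filled circles for the log2 ratio of mean signals, open diamonds for the authors' log2 fold change and dotted lines at 1.5-fold. LIFR and SOCS3 lie to the right of 0, with SOCS3 at PD30 farthest out at 1.51, and IL7R, IL6ST and JAK2 lie to the left.

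The order of the IL7R means was 15.5 ± 1.91 at PD30, 17.2 ± 2.90 with siSRC4, 21.9 ± 1.82 with GW8510, 24.3 ± 0.930 with siSRC2 and 37.6 ± 3.86 in the PD45 control (SD, n = 3 each). The groups other than the PD45 control were compared directly, a contrast that no deposited table holds, with limma on log2(signal + 1) over all genes that both tables list. Across IL7R, IL6ST and SOCS3 there were 8 such comparisons. In the same fits 66.4% of genes differed between GW8510 and PD30, 62.9% between siSRC2 and PD30, 60.4% between siSRC4 and PD30, 72.8% between GW8510 and siSRC2, 34.7% between GW8510 and siSRC4 and 27% between siSRC4 and siSRC2. With 3 against 3 libraries the smallest two-sided exact permutation p is 0.1.

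IL7R was higher with siSRC2 than at PD30, by 0.63 ± 0.11 (SE) on the log2(signal + 1) scale (limma, adjusted p = 0.000328 over 143 genes), and every siSRC2 library lay above every PD30 library (exact permutation p = 0.1). With GW8510 it was likewise higher than at PD30, by 0.48 ± 0.12 (SE; limma, adjusted p = 0.00502 over 512 genes; exact permutation p = 0.1), again with no overlap; with libraries scaled to a common median the difference was 0.73. With siSRC4 no difference from PD30 could be called (limma, adjusted p = 0.440; exact permutation p = 0.5), and the 95% interval of the difference ran from -0.17 to 0.45. The siSRC4 level was lower than the siSRC2 level by -0.49 ± 0.13 (SE; limma, adjusted p = 0.0228 over 100 genes; exact permutation p = 0.1). Leaving out any 1 of siSRC4 replicates 2 and 3 and siSRC2 replicates 1, 2 and 3 raised that adjusted p above 0.05, to between 0.0561 and 0.10, while the difference stayed between -0.51 and -0.42. Without siSRC4 replicate 1, the highest siSRC4 library, the difference was -0.61 (limma, adjusted p = 0.00372).

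Neighbours in the middle of the IL7R order were not told apart at the deposited scale. Between GW8510 and siSRC2 the difference was -0.15, with a 95% interval from -0.41 to 0.12 (limma, adjusted p = 0.289; exact permutation p = 0.2). Between GW8510 and siSRC4 it was 0.34, with an interval from 0.0015 to 0.68 before adjustment (limma, adjusted p = 0.117; exact permutation p = 0.1). The GW8510 and siSRC4 libraries of IL7R did not overlap, by a margin of 20.7 against 20.5. Without siSRC4 replicate 1 this difference was 0.47 with an adjusted p of 0.0233 in limma. With libraries scaled to a common median it was 0.59 and passed (limma, adjusted p = 0.00382), and the difference between GW8510 and siSRC2 turned to 0.0663 and did not pass (limma, adjusted p = 0.613).

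**Figure D3:**
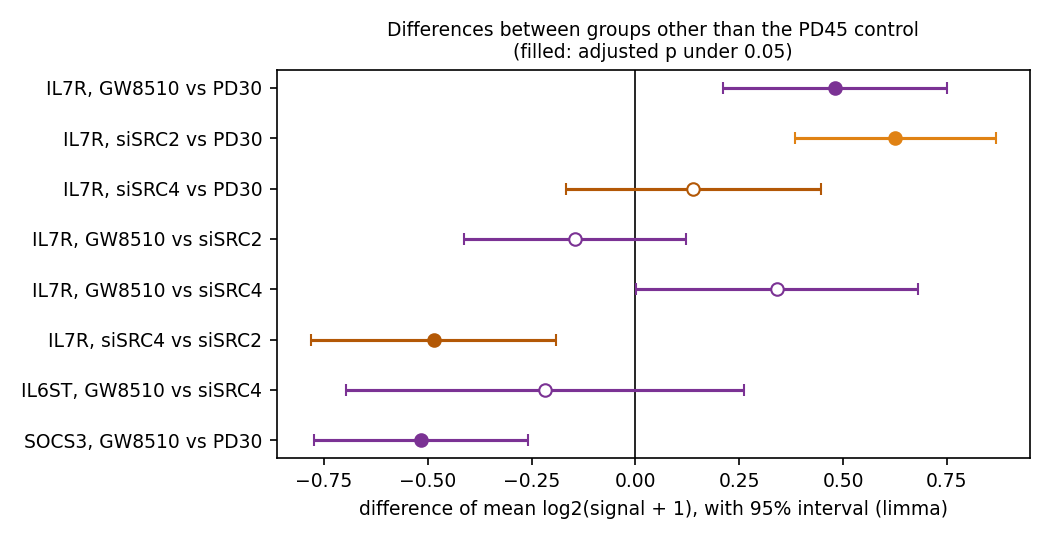
Differences between groups other than the PD45 control, as the group named first minus the other in mean log2(signal + 1) (x axis) with the 95% interval from limma; filled circles had an adjusted p under 0.05. IL7R was higher with GW8510 and with siSRC2 than at PD30 and lower with siSRC4 than with siSRC2, SOCS3 was lower with GW8510 than at PD30, and the IL6ST interval from -0.70 to 0.26 spans 0.

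Among the 21 other genes listed in all 4 tables, the gene most like IL7R over the 15 libraries was FABP4, a fatty acid-binding protein of fat cells and macrophages (Pearson r = 0.95 of log2(signal + 1)). FABP4 had signals of 23.0 ± 2.89 at PD30, 29.2 ± 2.11 with siSRC4, 39.0 ± 5.25 with GW8510, 61.7 ± 7.75 with siSRC2 and 90.6 ± 1.8 in the PD45 control, the same order of group means as IL7R. LCE2C, which has near-identical relatives, and FABP3, a fatty acid-binding protein of muscle, followed with r of 0.83 and 0.81. These values rest on shared groups and the same control libraries and are a description.

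IL6ST, the shared signal chain, was listed as lower with GW8510 and with siSRC4. Its signal was 36.4, 37.9 and 35.9 with GW8510, against 71.2, 74.9 and 58.3 in the PD45 control, so the GW8510 libraries were close together and all below the control. The ratio of mean signals was 1.85-fold lower, and the authors' deposited table gives 1.96-fold, with an adjusted p of 1.48e-25. By the authors' p it was number 90 of the 1845 genes listed for GW8510, ahead of SOCS3 at 157, LIFR at 324, IL7R at 386 and JAK2 at 1274.

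With siSRC4 the IL6ST libraries stood apart from one another, at 59.4, 44.7 and 29.7, against 71.2, 74.9 and 58.3 in the PD45 control. The highest siSRC4 library lay above the lowest control library, so the groups overlapped, and the coefficient of variation was 33.2% with siSRC4, 2.75% with GW8510 and 12.8% in the PD45 control. The log2 ratio was -0.61, or -0.87 without siSRC4 replicate 1 and -0.39 without siSRC4 replicate 3, and -0.30 with libraries scaled to the median of the listed genes. The authors' deposited table gives a log2 fold change of -0.74 and an adjusted p of 4.24e-06. Between GW8510 and siSRC4 directly, the IL6ST difference was -0.22 with a 95% interval from -0.70 to 0.26 (limma, adjusted p = 0.501; exact permutation p = 0.4). It was -0.48 without siSRC4 replicate 3 (limma, adjusted p = 0.0255) and 0.0105 without siSRC4 replicate 1.

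The siSRC4 libraries also differed among themselves by the base composition of the transcripts. Over 1167 genes listed for siSRC4, the deviation of replicate 1 from the other libraries of the group had a Spearman correlation of -0.48 with GC content, that of replicate 2 of 0.11 and that of replicate 3 of 0.39, across genes, which are not independent replicates. In the fifth of genes with the lowest GC content, from 31.8% to 39.5%, the median deviation was 0.36 for replicate 1 and -0.37 for replicate 3. The longest coding IL6ST transcript in GENCODE 29 has a GC content of 36.6%, and IL6ST deviated by 0.69 in replicate 1 and by -0.77 in replicate 3. IL7R, at 41.2% GC, deviated by 0.38 in replicate 1, by -0.19 in replicate 2 and by -0.20 in replicate 3. The part of composition in the siSRC4 differences of IL6ST and IL7R was not tested.

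**Figure D4:**
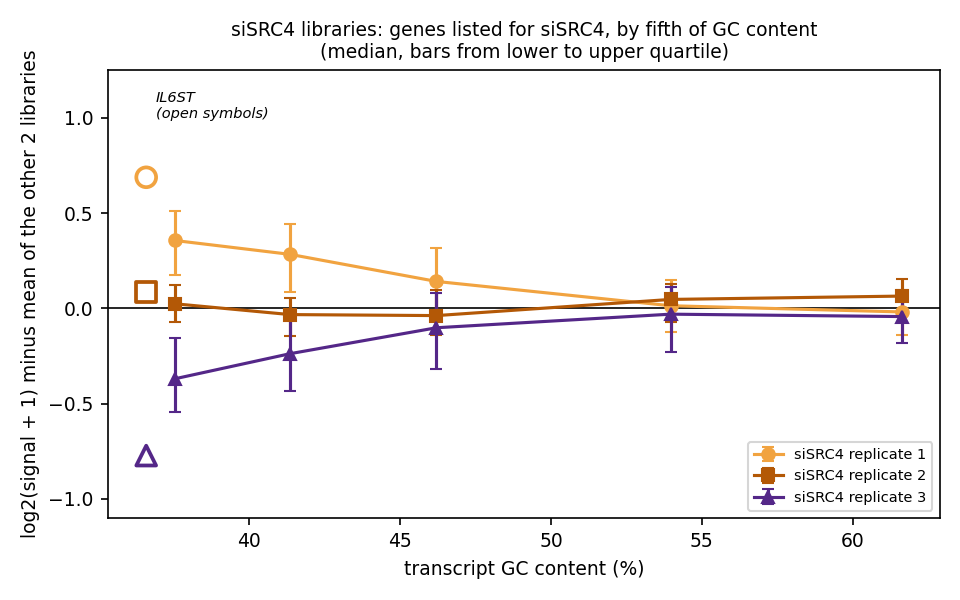
Deviation of each siSRC4 library from the mean of the other libraries of the group in log2(signal + 1) (y axis) against transcript GC content in % (x axis), as medians of 5 GC bins of 1167 listed genes with bars from the lower to the upper quartile, and IL6ST as open symbols. The libraries part at low GC content, at 0.36 for replicate 1 and -0.37 for replicate 3, and meet at high GC content.

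The genes most like IL6ST over the 9 libraries of GW8510, siSRC4 and the PD45 control, among 293 others, were SMC6, a subunit of the SMC5/6 genome stability complex (r = 0.99), LRRC40 (r = 0.98) and the translesion polymerase gene POLK (r = 0.98). SMC6 had a signal of 1.60 ± 0.171 with GW8510 and 2.11 ± 0.940 with siSRC4, against 3.57 ± 0.517 in the PD45 control, with a wide siSRC4 spread like that of IL6ST. These values rest on shared groups and the same control libraries and are a description.

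LIFR, the partner of gp130 for LIF, was listed for GW8510 alone, as higher. Its signal was 6.67, 7.86 and 7.25 with GW8510, against 4.34, 4.64 and 4.62 in the PD45 control, a ratio of 1.60 with no overlap. The authors' deposited table gives a log2 fold change of 0.74 and an adjusted p of 3.02e-13. The gene paired with it in the receptor, IL6ST, is listed in the opposite direction in the same libraries. NOCT, a gene with circadian expression, was the most like LIFR over 6 libraries (r above 0.99, among 1624 genes). With 2 groups of 3, any listed gene with a tight spread scores high on this measure.

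JAK2, the kinase gene, was listed for GW8510 alone, as lower. Its signal stood at 0.95, 0.93 and 0.95 with GW8510, against 1.90, 1.84 and 1.41 in the PD45 control, which is 1.82-fold lower with no overlap. The values carry 2 decimals, so at this level a step of the last digit is about as large as the spread of the GW8510 libraries. The authors' deposited table gives a smaller difference, 1.64-fold lower, with an adjusted p of 0.000695. EXOC6B, an exocyst subunit gene, PARP14, an ADP-ribosyltransferase gene, and BCAT1, a branched-chain aminotransferase gene, were the most alike in pattern (each r above 0.99 over 6 libraries). The limit given for LIFR on this measure holds here too. As with IL6ST and IL7R, the control library of replicate 3 was the lowest, at 1.41 for JAK2, 58.3 for IL6ST and 33.6 for IL7R. Over 1611 genes listed for GW8510, that control library deviated with a Spearman correlation of -0.34 with transcript length. JAK2, IL6ST and IL7R transcripts are 5285, 9057 and 4626 bases long. The LIFR transcript is longer, at 10089 bases, and its control library of replicate 3 was not the lowest. The part of length in these differences was not tested.

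SOCS3, the STAT3-induced inhibitor, was listed as higher at PD30 and with GW8510. PD30 libraries had signals of 39.1, 39.3 and 38.0, and GW8510 libraries 23.8, 26.1 and 31.1, against 12.5, 14.1 and 14.5 in the PD45 control. The 3 groups did not overlap, with PD30 on top and the control lowest. The ratio to the PD45 control was 2.84 at PD30 and 1.98 with GW8510. In the authors' deposited tables the log2 fold changes were 1.52 for PD30 (adjusted p of 9.42e-55) and 1.10 for GW8510 (adjusted p of 1.89e-19). Directly compared, SOCS3 was lower with GW8510 than at PD30, by -0.52 ± 0.11 (SE) on the log2(signal + 1) scale (limma, adjusted p = 0.00242 over 512 genes; exact permutation p = 0.1). When the libraries were scaled to a common median, the difference was -0.26 and did not pass (limma, adjusted p = 0.0583).

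Also listed as higher at PD30 was SOCS3-DT, the divergent transcript beside SOCS3, named here after its values were seen. Its signal was 1.83, 2.16 and 1.46 at PD30, against 0.53, 0.46 and 0.53 in the PD45 control. The sources used here do not say whether counting used strand, so reads of neighbouring transcripts may not be fully separated. Over the 9 libraries of PD30, GW8510 and the PD45 control, the genes most like SOCS3 among 526 others were ELN, the elastin gene, TAGLN2, an actin-binding protein gene, and IFIT1, an interferon-stimulated gene, each with r = 0.98. Any listed gene with the same order of group means and a tight spread scores high here. ELN was low, at 0.60 ± 0.121 in the PD45 control, 2.79 ± 0.447 with GW8510 and 4.09 ± 0.125 at PD30.

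The 5 genes differ in composition. SOCS3, higher with GW8510, has a transcript GC content of 60.0%, against a median of 55.7% for genes listed as higher with GW8510. IL6ST at 36.6%, JAK2 at 39.2% and IL7R at 41.2%, all lower, lie below the median of 41.7% for genes listed as lower. LIFR, higher with GW8510, has 36.2%, on the side of the lower genes. The part of composition in the GW8510 differences was not tested. More genes are listed as lower than as higher with GW8510, and with libraries scaled to the median of the listed genes the log2 ratios to the PD45 control were nearer to 0 for IL7R (-0.25), JAK2 (-0.33) and IL6ST (-0.36) and farther from it for LIFR (1.20) and SOCS3 (1.5).

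A list of 127 JAK-STAT genes, in which the 5 are included, gives the surroundings of the pathway. How many of the 127 the authors tested is not known here. For PD30, 27 of the 127 were listed, or 21.3% against 15.3% of all tested genes, 17 as higher and 10 as lower than in the PD45 control. For GW8510, 17 were listed (13.4% against 11.8%), 9 as higher and 8 as lower. All 5 chosen genes are among these 17, and IL7R is in the count of every comparison. The choice thus raised the shares, and nothing is read from them. For siSRC4, 8 were listed (6.30% against 8.77%), 2 as higher and 6 as lower. For siSRC2, 2 were listed (1.57% against 2.64%), IL7R as lower and IL1R1, an interleukin 1 receptor gene, as higher. The median authors' log2 fold change of the listed list genes was 0.71 for PD30, against 0.64 over all listed genes, and 0.64 for GW8510, against -0.65. With 9 values above 0, 8 below and none near it, the GW8510 median is the smallest of the higher values, and its sign rests on 1 gene. For siSRC4 it was -0.81, against -0.61 over all listed genes.

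**Figure D5:**
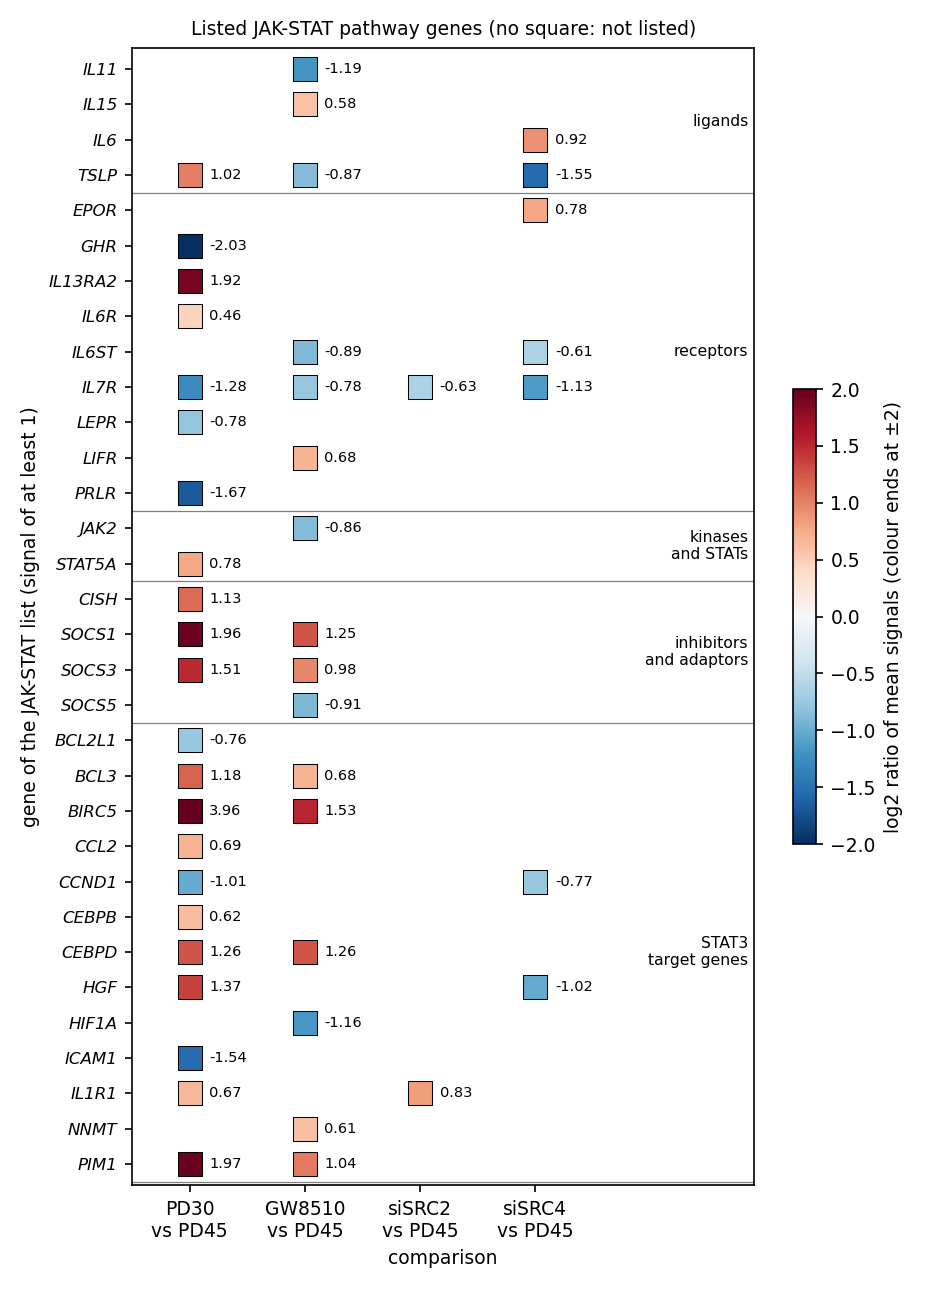
Log2 ratio of mean signals to the PD45 control (printed value and colour) for the JAK-STAT list genes reported here with a group mean of at least 1, by comparison (columns) and role (rows); no square means that the gene is not listed for that comparison. IL7R has a square in each of the 4 columns, and SOCS1, SOCS3, PIM1, BCL3, BIRC5 and CEBPD have positive values in the PD30 and GW8510 columns.

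Of the 23 inhibitors and adaptors, PD30 had 3 listed, all higher, or 13% against 15.3% of all tested genes, and GW8510 had 3, or 13% against 11.8%. SOCS3, chosen as a listed gene, is among the 3 in each, and none of the 23 was listed for siSRC4 or siSRC2. SOCS1, a relative of SOCS3 that blocks JAK activity, stood at 15.4 ± 3.97 at PD30, against 3.95 ± 0.480 in the PD45 control, and CISH, an inhibitor induced by STAT5, at 1.97 ± 0.295, against 0.900 ± 0.246. With GW8510, SOCS1 was 2.38-fold higher, in libraries of 5.80, 9.76 and 12.7, against 3.47, 4.43 and 3.95 in the PD45 control. SOCS5, another family member, was 1.87-fold lower with GW8510 (8.12 ± 0.703, against 15.2 ± 0.98). The inhibitor genes listed for GW8510 thus included 2 that were higher and 1 that was lower.

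Of 32 STAT3 target genes, 12 were listed for PD30, 9 as higher and 3 as lower, which is 37.5% against 15.3% of all tested genes (8.24% higher and 7.07% lower). For GW8510, 7 target genes were listed, 5 as higher and 2 as lower, or 21.9% against 11.8% (4.59% higher and 7.26% lower). For siSRC4, 2 were listed, both as lower (6.25% against 8.77%), and for siSRC2 1, as higher (3.12% against 2.64%). The list was chosen with earlier results of these data known. PIM1, a kinase gene induced by cytokines, was 3.92-fold higher at PD30 and 2.06-fold higher with GW8510 than in the PD45 control. BCL3, a nuclear NF-kB cofactor gene, was 2.27-fold and 1.60-fold higher in the same groups. CEBPD, an acute-phase transcription factor gene, was 2.39-fold higher in both, with GW8510 libraries spread over 89.5, 152 and 181, against 57.6, 62.0 and 57.5 in the PD45 control. BIRC5 was 15.6-fold higher at PD30 and 2.88-fold higher with GW8510; it is also a gene of mitosis. HGF, a growth factor gene, was 2.58-fold higher at PD30 and 2.03-fold lower with siSRC4. CCND1, cyclin D1, was 2.01-fold lower at PD30 and 1.70-fold lower with siSRC4. HIF1A, a hypoxia transcription factor gene, was 2.24-fold lower with GW8510 (41.8 ± 4.50, against 93.7 ± 17), and ICAM1, an adhesion molecule gene, was 2.90-fold lower at PD30.

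Among 27 ligand genes, TSLP, whose product binds the IL7R chain, was listed in 3 tables. Its signal was 10.9 ± 0.248 at PD30, 2.97 ± 0.766 with GW8510 and 1.85 ± 0.483 with siSRC4, against 5.41 ± 1.27 in the PD45 control. TSLP and IL7R were thus both lower with GW8510 and with siSRC4, while at PD30 TSLP was 2.02-fold higher and IL7R was lower. For GW8510, 3 ligand genes were listed, 1 as higher and 2 as lower (11.1% against 11.8% of all tested genes). PD30 had 1 (3.7% against 15.3%), siSRC4 had 2 (7.41% against 8.77%) and siSRC2 had none. IL11, a ligand that signals through gp130, was 2.28-fold lower with GW8510. IL15 was higher with GW8510, at 2.72 ± 0.215, against 1.82 ± 0.236 in the PD45 control. IL6, the cytokine that gives the gp130 family its name, was listed for siSRC4 alone, at 7.25 ± 1.06, against 3.84 ± 0.523 in the PD45 control.

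Of the 34 receptor genes, 8 were listed for PD30, 3 as higher and 5 as lower, or 23.5% against 15.3% of all tested genes. For GW8510, 3 were listed (8.82% against 11.8%), for siSRC4 likewise 3 (8.82% against 8.77%), and for siSRC2 IL7R alone (2.94% against 2.64%). The 3 for GW8510 are LIFR, IL6ST and IL7R, and those for siSRC4 are IL6ST, IL7R and EPOR. Since LIFR, IL6ST and IL7R were chosen as listed genes, nothing is read from these shares. At PD30, GHR, the growth hormone receptor gene, was 4.10-fold lower, at 0.377 ± 0.147, against 1.54 ± 0.428 in the PD45 control. LEPR, the leptin receptor gene, was 1.72-fold lower at PD30. IL13RA2, a decoy receptor gene for interleukin 13, was 3.78-fold higher at PD30, at 2.85 ± 0.105, against 0.753 ± 0.0503. GHR and IL13RA2 thus had low signals, under 1 in the lower group. IL6R, the binding chain for IL6, was 1.37-fold higher at PD30, at 5.77 ± 0.330, against 4.20 ± 0.419 in the PD45 control. CSF2RB was listed at 0 in all PD30 libraries, against 0.08, 0.06 and 0.14 in the PD45 control, near the floor in both groups. Of 11 kinase and STAT genes, 3 were listed for PD30, 1 as higher and 2 as lower (27.3% against 15.3% of all tested genes). For GW8510 the chosen gene JAK2 alone was listed (9.09% against 11.8%). STAT5A, a STAT of growth hormone and prolactin signalling, was 1.71-fold higher at PD30. JAK3 and STAT4, both lower at PD30, had signals under 1 in the mean of either group, and the STAT4 libraries overlapped with the control.

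Markers of other cell types moved in the same comparisons. At PD30, 4 of 8 muscle and pericyte markers were listed as lower, with a summed signal of 228 to 283, against 439 to 488 in the PD45 control, and 3 of 10 epithelial markers were lower, with sums of 50.8 to 56.5, against 162 to 188. Of all tested genes, 15.3% were listed at PD30, 7.07% as lower. The sums cover the listed markers alone, so the listing fixed their direction and nothing is read from their separation. With GW8510, the epithelial keratin gene KRT19 was higher (204 to 251, against 123 to 148 in the PD45 control), and CD68, a gene of macrophage lysosomes, was lower (25.3 to 31.0, against 44.3 to 54.7). With siSRC2, KRT19 was lower (72.3 to 75.1, against 123 to 148 in the PD45 control). TEK, an endothelial receptor gene and the 1 listed of 8 endothelial markers, was higher at PD30 (28.8 to 31.4) and with siSRC2 (11.6 to 14.1), against 6.22 to 8.53 in the PD45 control. RGS5, a pericyte gene, was lower with GW8510 (2.68 to 3.94) and with siSRC4 (4.22 to 8.63), against 7.58 to 11.1 in the PD45 control, with an overlap for siSRC4 and none for GW8510. Their part in the differences of the 5 genes was not tested.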

How the data were processed

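RNA was measured in 15 libraries of WI-38 cells in 5 groups of 3. Tools in the submitters' processing notes are edgeR, DESeq2, RSEM, StringTie, HISAT2 and CASAVA, with no roles given. These notes give the build as GRCm38, a mouse assembly, although the gene identifiers are human Ensembl identifiers; no gene coordinates are taken from the files. Per the file headers, the authors deposited a normalized signal per library, a fold ratio, a log2 fold change, and p-values with adjusted p-values. The signal's scale (TPM or FPKM) is not given in the sources used here, and depth is unknown. In 2 tables the library names (siSRC2, siSRC4) differ from the mean column's title, and the library names were followed. The number of genes tested was inferred from the adjusted p over the p in the row with the smallest p. Control signals were identical wherever tables shared a gene (1700 comparisons).

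Means, SDs and ratios were computed with scipy 1.17.1, numpy 2.4.6 and pandas 2.3.3 under Python 3.11.15. Direct comparisons used limma 3.58.1 in R 4.3.3, with a mean-variance trend, on log2(signal + 1), leaving out genes whose mean signal was under 1, adjusted by Benjamini-Hochberg over all genes fitted. The fit was tried on simulated data modelled on PD30, GW8510 and siSRC4 against the PD45 control and on GW8510 against PD30. The other direct comparisons, siSRC4 against siSRC2 among them, were not simulated. Differences on the log2(signal + 1) scale understate those of low genes. Fitted genes are those listed by both tables, so the fits are conditional on the authors' calls. No label says whether the 3 libraries of a group are separate cultures; the p-values reflect only their spread, which may be technical. Transcript GC content and length are those of the longest coding transcript in GENCODE 29. The genes, lists and tests were chosen with earlier results of these data known. Named genes are the 5, SRC, the listed genes of the pathway list (1 is not reported here) and the 3 most alike genes by Pearson r.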

Additional observations from a re-analysis of the deposited data

Results flagged for a closer look

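The IL7R levels with the 2 SRC siRNAs, each lower than in the PD45 control, differed from each other when tested directly. IL7R was lower with siSRC4 than with siSRC2 by -0.49 on the log2(signal + 1) scale (limma, adjusted p = 0.0228 over 100 genes that both tables list, of which 27% differed). The exact permutation p was 0.1, the smallest that 3 against 3 libraries can give. All 3 siSRC4 libraries lay below all 3 siSRC2 libraries, at 20.5, 15.6 and 15.5 against 24.3, 25.2 and 23.4. SRC itself stood at 10.8 ± 1.16 with siSRC4 and 11.3 ± 0.580 with siSRC2 (SD, n = 3 each). Leaving out 1 library ended the call in 5 of 6 cases, with limma adjusted p-values from 0.0561 to 0.10, and the difference ranged from -0.61 to -0.42. Over the genes listed for each siRNA, library deviations correlated with transcript GC content from -0.48 to 0.39 for siSRC4 and from -0.02 to 0.04 for siSRC2 (Spearman). The part of composition in this IL7R difference was not tested.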

How the results depend on the processing

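Depth is unknown, the signals have 2 decimals, and genes outside the tables have no values here. With limma, 2197 of 2258 fitted genes passed for PD30, 296 of 310 for siSRC2, 1551 of 1625 for GW8510 and 1096 of 1170 for siSRC4; these genes had already passed the authors' test on the same libraries, so the counts say nothing about stability. Replicate numbers were not taken to pair the libraries, since in no comparison were all 3 correlations of same-numbered deviations above 0.1. They ranged from 0.08 to 0.13 for siSRC4, 0.09 to 0.21 for siSRC2, 0.03 to 0.10 for GW8510 and -0.10 to 0.02 for PD30. All 6 siSRC2 and siSRC4 libraries correlated best with the control of their own number, a hint from the data and not from the design, and no GW8510 or PD30 library did; with the replicate block 2198, 302, 1552 and 1122 genes passed in the same order, and no direct comparison changed its call.

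All 10 differences from the PD45 control kept their direction under 100 alternatives. Leaving out 1 library moved none beyond the spread between libraries. The genes had been chosen by these differences, and that spread comes from the same libraries. Both outcomes were thus largely fixed beforehand and say nothing about stability. Scaling to the median of the listed genes, which by construction centres lists that lean one way, shifted the median of the fitted genes by 0.41 for GW8510, 0.28 for siSRC4, -0.29 for PD30 and -0.08 for siSRC2. The log2 ratios were then 1.15 for SOCS3 and -1.63 for IL7R at PD30, -0.33 for JAK2, 1.5 for SOCS3, 1.20 for LIFR, -0.36 for IL6ST and -0.25 for IL7R with GW8510, and -0.80 for IL7R and -0.30 for IL6ST with siSRC4. With pseudocount 1, the differences with GW8510 were -0.48 for JAK2 and 0.58 for LIFR.

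Of the 8 direct comparisons, the scaling ended the SOCS3 call between GW8510 and PD30 (-0.26), gave one for IL7R between GW8510 and siSRC4 (0.59; limma, adjusted p = 0.00382), and reversed 2 uncalled differences, IL7R between GW8510 and siSRC2 (0.0663) and IL6ST between GW8510 and siSRC4 (0.0360). Leaving out 1 library gave ranges of -0.48 to 0.0105 for IL6ST between GW8510 and siSRC4, 0.28 to 0.47 for IL7R between GW8510 and siSRC4, and -0.61 to -0.42 for IL7R between siSRC4 and siSRC2. The causes of these changes were not tested.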
